A study of Mus musculus with 2 samples.

Results

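Choroid plexus epithelial nuclei were sought by marker genes in the brains of fetal mice, profiled nucleus by nucleus with RNA-seq, and 132 of 13366 kept nuclei met the rule. Kept nuclei had 500 detected genes or more, and no more than 5% of their unique molecular identifiers (UMIs, tags that count each captured RNA molecule once) came from mitochondrial genes. Members were chosen by measured UMIs: a nucleus was a member when Folr1, Kl, Kcne2, Clic6, Enpp2, Aqp1 and Ttr together gave at least 5 UMIs, with at least 2 of these genes detected. Nuclei with more than 3 UMIs of the fibroblast collagens Col1a1, Col1a2 and Col3a1, or more than 2 of the endothelial receptors Flt1 and Kdr, were left out, which removed 11 and 18 nuclei. The study compared wildtype fetal brain with fetal brain labelled Cav1 knockout, with 1 library of each genotype. Both samples were whole brain, labelled fetal, and the labels used here add no strain, gestational day, number of animals or description of the knockout allele. Pairs of values are given for the wildtype-labelled library first and the knockout-labelled library second. Without replicate libraries no difference between the genotypes could be tested, and every interval given covers counting error only.

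The choroid plexus is a fold of tissue in the brain ventricles whose epithelium secretes cerebrospinal fluid and forms a barrier between blood and that fluid. It arises from the roof of the neural tube, pumps ions and bicarbonate, carries nutrients and thyroid hormone, and releases transthyretin, the product of Ttr. Its cells carry tufts of cilia, which need a dedicated gene program for making many basal bodies.

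Members made up 55 of 6686 kept nuclei in the wildtype-labelled library, a share of 0.823% (exact Clopper-Pearson 95% interval 0.620% to 1.07%). The knockout-labelled library held 77 of 6680, or 1.15% (0.911% to 1.44%). The difference was 0.33 percentage points, with a Wald interval of -0.005 to 0.665. No barcode was shared between the members of the libraries, although 10 were shared among kept nuclei and 43 among all deposited barcodes. Kept nuclei had median depths of 2133.5 and 2366 UMIs, while members had medians of 3735 and 3529.

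The targeted gene gave no clear separation of the libraries. Cav1, which encodes the main coat protein of caveolae, had 71 and 80 UMIs over all kept nuclei (log2 ratio -0.04, interval -0.51 to 0.45). A 3′ tag does not show whether an upstream exon is deleted, so the libraries are called by their labels. In members Cav1 had 0 and 3 UMIs. Its neighbours differed: Cav2 had 0 and 30 UMIs in members, 4.98-fold more when the empty library is set to 3 UMIs. The transcript Gm15581 had 0 and 68 UMIs, 11.3-fold more by the same setting. Over all kept nuclei the same genes had 19 and 764 UMIs and 62 and 1834 UMIs, and the members' Gm15581 level in the knockout-labelled library was 1.18 times that of the other nuclei there.

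Promoters of 3 genes are shown, of the rule gene Kcne2 and of the cilia genes Deup1 and Spag16, and each holds the motif marked below. They do not stand for all cilia genes, since the promoters of Gmnc, Dnah6 and Cdc20b had no match. RefSeq's table of promoters on GRCm38.p6 (the counts were made on another build, GRCm39) held Kl, Kcne2 and Aqp1 of the rule genes, and Aqp1 and 1 of the 2 Kcne2 promoters had the motif shown here. Each stretch is 250 bases upstream of an annotated start, read 5′ to 3′ on the gene's strand. Capitals mark GTTGCC or its reverse complement GGCAAC, the half-site bound by regulatory factor X (RFX) proteins, which switch on cilia genes.
Kcne2, chr16:92292139-92292388, plus strand: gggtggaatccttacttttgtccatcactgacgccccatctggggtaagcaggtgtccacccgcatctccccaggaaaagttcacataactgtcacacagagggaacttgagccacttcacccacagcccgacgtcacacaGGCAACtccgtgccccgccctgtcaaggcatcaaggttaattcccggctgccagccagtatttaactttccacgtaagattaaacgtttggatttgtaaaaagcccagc
Deup1, chr9:15627847-15628096, minus strand: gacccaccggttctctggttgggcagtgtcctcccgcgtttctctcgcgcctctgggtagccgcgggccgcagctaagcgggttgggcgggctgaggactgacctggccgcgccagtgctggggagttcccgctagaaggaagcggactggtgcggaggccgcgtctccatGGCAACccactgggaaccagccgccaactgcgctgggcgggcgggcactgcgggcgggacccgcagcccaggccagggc
Spag16, chr1:69826720-69826969, plus strand: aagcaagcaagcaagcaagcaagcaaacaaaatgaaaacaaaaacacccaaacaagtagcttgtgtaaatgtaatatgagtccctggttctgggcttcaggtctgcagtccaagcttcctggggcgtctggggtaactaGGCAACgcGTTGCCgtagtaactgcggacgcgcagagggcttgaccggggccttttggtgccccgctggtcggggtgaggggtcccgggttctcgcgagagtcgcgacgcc

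The half-site began 109 bases before the Kcne2 start and 79 bases before the Deup1 start. Spag16 held it on both strands, 111 and 103 bases before its start, as an inverted repeat. A second annotated promoter each of Kcne2 and Deup1 did not contain it. Searched on both strands of promoters of 300 bases (250 before to 50 after the start), the half-site was present for 16 of the 33 multiciliation genes with a promoter in the table (48.5%) and for 3821 of all 27025 genes (14.1%). For ion and water transport genes it was 5 of 18. The forkhead motif GTAAACA was present for 3 of the 33 multiciliation genes and 4.05% of all genes, and the OTX motif TAATCC for 1 of the 33 and 8.14% of all genes. No motif contains another, and a match describes the sequence only.

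The rule genes themselves are given as a description, since they chose the nuclei. Ttr gave 81.7% and 84.6% of the members' marker UMIs, and every member held it, with 2 to 102 UMIs (median 16) and 1 to 130 UMIs (median 15). Clic6, a chloride channel protein, gave 111 and 98 UMIs, and Folr1, the receptor that carries folate into cerebrospinal fluid, gave 41 and 81. Enpp2, which makes lysophosphatidic acid, gave 46 and 85, and the potassium channel subunit Kcne2 gave 40 and 42. The water channel Aqp1 gave 8 and 16, and Kl, which encodes klotho, gave 3 and 1. Just inside the threshold, at a marker sum of 5, were 3 and 9 nuclei, and just outside it, at 4, were 15 and 22.

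Ttr was also detected in other nuclei, and the source of that RNA was not tested. After thinning every nucleus to 1000 UMIs, Ttr was detected in 19.8% and 17.0% of the nuclei of a radial glia set, which should lack it. That set was drawn by at least 5 UMIs of Slc1a3, Fabp7, Hes5, Pax6, Ednrb and Vim and had median depths of 2478 and 2932 UMIs before thinning. Of thinned members 85.5% and 82.2% held Ttr, with 4 knockout-labelled members too shallow to be thinned. Low-neuron members, defined below, averaged 21.2 and 22.8 Ttr UMIs per nucleus, against 0.595 and 0.820 in the radial glia set. The markers other than Ttr and Enpp2 gave 19.0 and 16.4 UMIs per 100 of Ttr there, against 8.18 and 6.03 in the radial glia set.

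The label was checked with Trpm3, a cation channel, and Htr2c, a serotonin receptor, both abundant in choroid plexus epithelium and not used by the rule. They made up a median of 1.42% (range 0% to 3.71%) and 0.657% (0% to 4.67%) of a member's UMIs. Trpm3 lies at chr19:22116410-22972774 on the plus strand and Htr2c at chrX:145745509-145980286 on the plus strand (GRCm39). In the radial glia set the median was 0%. A fibroblast set, drawn by at least 5 UMIs of the collagens, was not free of the pair: 11 of 37 and 8 of 40 of its nuclei reached 0.5%, up to 5.93% and 5.96%. Trpm3 stood at 7142 and 5513 CPM there (CPM is explained below) and Htr2c at 7.93 and 0 CPM, so that share was of Trpm3. The data went against the label for some members, since 4 and 15 members had no UMI of either gene. Nuclei are therefore called members by the rule, and not epithelial nuclei, in what follows. None of the 3 and 9 nuclei at a marker sum of 5 reached 0.5% from the pair, while 2 of 15 and 1 of 22 nuclei at a sum of 4 did. Members at 0.5% or more numbered 42 and 40, or 0.628% (0.453% to 0.848%) and 0.599% (0.428% to 0.815%) of kept nuclei, a difference of -0.029 points (-0.294 to 0.235). This cut was set after the data were seen, and 12 and 8 members lay between 0.25% and 1%.

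**Figure D1:**
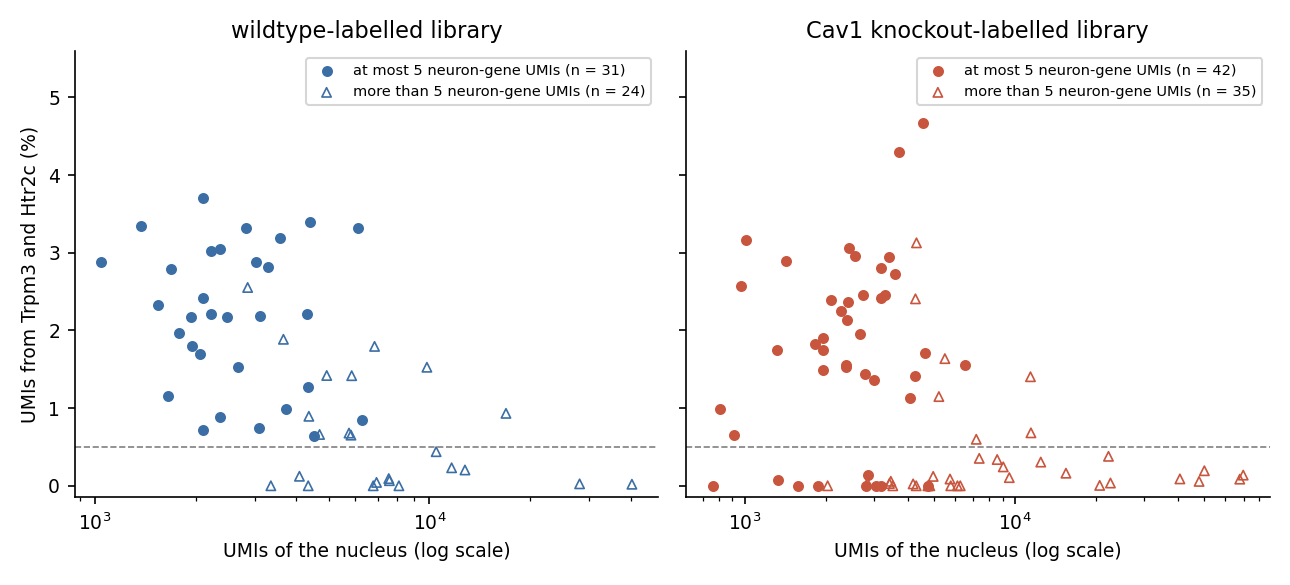
Each point is a member, with its UMIs on a log axis and the percentage of them from Trpm3 and Htr2c, for the wildtype-labelled (left) and knockout-labelled (right) library; filled circles had at most 5 UMIs of 10 neuron genes, open triangles had more, and the dashed line is 0.5%. The members with the most UMIs lay near 0%, and the 31 filled points of the wildtype-labelled library all lay above the line.

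Of the members under 0.5%, all 13 wildtype-labelled and 28 of 37 knockout-labelled nuclei held more than 5 UMIs of 10 neuron genes. Members with over 10000 UMIs numbered 6 and 12 and held 38.6% and 62.6% of all member UMIs. A subset with at most 5 UMIs of these genes, Dcx, Stmn2, Snap25, Syt1, Tubb3, Neurod6, Neurod2, Gad2, Gad1 and Slc17a6, is called low-neuron members. It held 31 and 42 nuclei, with median depths of 2361 and 2493 UMIs. In it Trpm3 and Htr2c made up a median of 2.21% (0.643% to 3.71%) and 1.75% (0% to 4.67%) of UMIs, but it held only 28.3% and 17.7% of member UMIs. All 31 wildtype-labelled low-neuron members reached 0.5%, against 33 of 42 in the knockout-labelled library. Of the 9 that did not, 8 had marker sums of 5 to 10, 7 had no UMI of Trpm3 or Htr2c, and the 9 together held 7 UMIs of the multiciliation list. The ninth stood apart, with 93 Ttr UMIs among its 1331. Nuclei outside the rule with 0.5% or more from the pair numbered 72 and 69. Sums over all members follow the deep nuclei, so gene values below are for low-neuron members unless members are named, and list counts are given for both sets.

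The share of nuclei that met the rule was larger in deeper nuclei, whereas the share that also held Trpm3 and Htr2c varied less. Among wildtype-labelled nuclei 0.267% of those under 2000 UMIs met the rule and 8.45% (3.16% to 17.5%) of those with 10000 or more. The knockout-labelled values were 0.525% and 8.39% (4.41% to 14.2%). With the 0.5% minimum the same bins held 0.267% and 1.41%, and 0.375% and 1.40%. When every nucleus was first thinned to 1000 UMIs, 26 and 29 nuclei met the rule, of which 25 and 26 were among those with at least 0.5% from the pair. The part of depth, and of doublets or free RNA, in the difference between the libraries' member numbers was not tested.

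**Figure D2:**
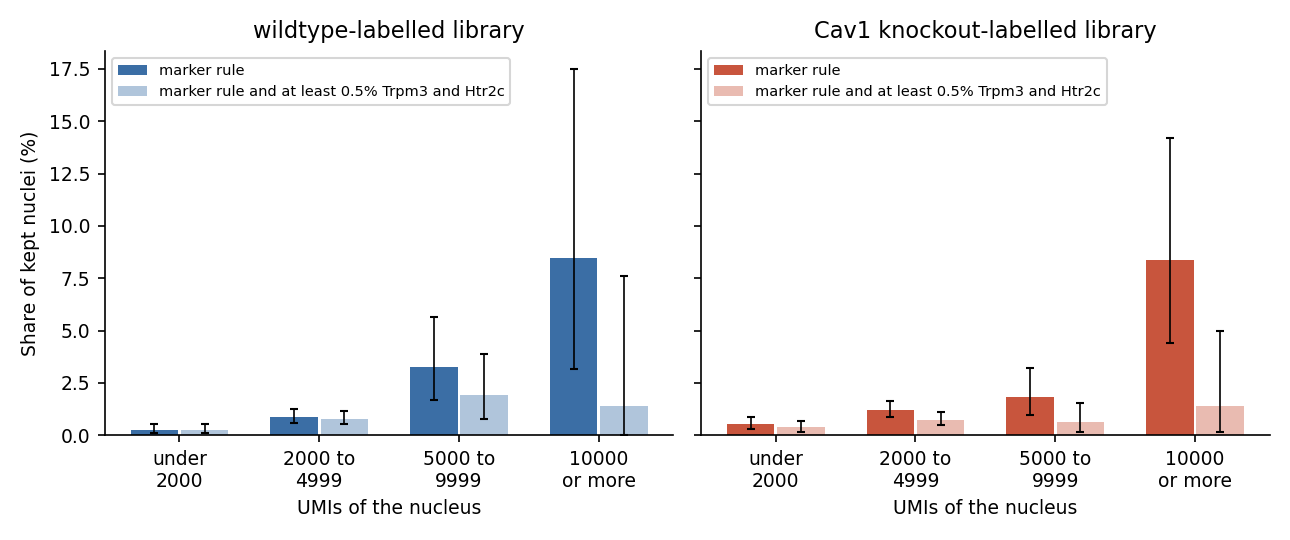
Bars give the percentage of kept nuclei in each bin of UMIs that met the marker rule (dark) and that also had at least 0.5% of UMIs from Trpm3 and Htr2c (light), with exact 95% binomial intervals, in the wildtype-labelled (left) and knockout-labelled (right) library. The dark bars reach 8.45% and 8.39% at 10000 UMIs or more, where the light bars stand at 1.41% and 1.40%.

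Against the other nuclei of the same library, members showed epithelial, transport and cilia genes. A gene counted as higher when its CPM (its UMIs over the summed UMIs of the nuclei, scaled to 1000000) reached 2-fold that of the other nuclei in each library, with an interval excluding 1. There were 15528 genes with at least 100 UMIs over kept nuclei to be compared. By this rule 426 genes (2.74%) were higher in members and 14 (0.0902%) lower. For low-neuron members 719 (4.63%) were higher and 497 (3.2%) lower. In both sets 394 genes were higher and only 2 lower. Over all tested genes the median log2 ratio of members to other nuclei was -0.11 and -0.04. The minimum counted the members' own UMIs, so 139 genes entered only with them. With the minimum set on the other nuclei alone, an alternative added after seeing the data, 379 genes were higher in members and 672 in low-neuron members. No test stands behind these counts.

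Among roof plate and choroid identity factors 6 of 19 tested genes were higher in members and 8 in low-neuron members. The list's median log2 ratio in members was 1.49 and 0.70. Otx2, a homeobox factor needed for choroid plexus formation, stood at 465 and 632 CPM in low-neuron members and at 38.8 and 34.8 CPM in other nuclei. The roof plate homeobox factor Lmx1a stood at 657 and 397 CPM, 62.7- and 32.4-fold above other nuclei. Bone morphogenetic proteins, which the roof plate secretes, were represented by Bmp6 (11.1- and 5.04-fold) and Bmp7 (16.3- and 5.23-fold). The Wnt amplifier Rspo2 (11.7- and 9.28-fold) and the zinc finger factor Zic4 (8.59- and 4.11-fold) completed the 6, and Rspo3 and Zic1 were higher in low-neuron members only by the rule. The list did not set members apart from the fibroblast set, where it summed to 2727 and 2500 CPM against 1657 and 1044 CPM in members and 3286 and 2383 CPM in low-neuron members. Bmp6 (0.258- and 0.128-fold of the fibroblast set) and Bmp7 (0.684- and 0.163-fold) were lower in low-neuron members than there, while Otx2 and Lmx1a each had 0 and 7.89 CPM in that set. The inhibitors Id1, Id2 and Id3 and the ligands Wnt2b and Wnt5a were not called. Msx1, Msx2, Bmp4, Gdf7, Wnt1 and Wnt3a had too few UMIs to enter.

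Ion and water transport genes gave 9 of 24 higher in members and 11 in low-neuron members, with a list median log2 ratio in members of 1.13 and 0.80. In the other direction 1 gene of the list was lower in members and none in low-neuron members. Trpm3 stood at 12450 and 11500 CPM in low-neuron members, 24.6- and 22.2-fold above other nuclei and 1.74- and 2.09-fold above the fibroblast set. The list summed to 9742 and 8061 CPM in the fibroblast set, against 7432 and 5130 CPM in members and 16040 and 15080 CPM in low-neuron members. Car12 and Car14, carbonic anhydrases that supply bicarbonate, were 42.8- and 59.0-fold and 14.1- and 9.55-fold higher. The bicarbonate and anion exchangers Slc4a10 (7.25- and 4.86-fold) and Slc4a2 (13.3- and 15.0-fold) were also higher. Slc4a5, the apical bicarbonate cotransporter, had too few UMIs to enter but stood at 113 and 144 CPM against 0.888 and 1.14 CPM. The potassium channel Kcnj13 was 7.47- and 6.66-fold higher, and the cotransporter genes Slc12a2 3.52- and 4.26-fold and Slc12a4 10.8- and 11.6-fold. The calcium pump gene Atp2b3 stood at 453 and 253 CPM against 16.2 and 19.4 CPM. Stk39, a kinase that acts on such cotransporters, was 3.66- and 5.10-fold higher. The sodium pump subunit gene Atp1b1 (4.64- and 0.655-fold) was not called.

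Of the epithelial junction and polarity genes 3 of 12 tested were higher in both member sets. They were Ocln, the tight junction protein occludin (90.7 and 90.3 CPM in low-neuron members against 2.72 and 4.10 CPM), the junction protein gene Cgnl1 (14.1- and 12.2-fold) and Ezr, the membrane-cytoskeleton linker ezrin (13.8- and 15.3-fold). The list summed to 1395 and 1688 CPM in the fibroblast set, against 1385 and 1397 CPM in members and 1983 and 1823 CPM in low-neuron members. Tjp1 and the cadherin Cdh2, which many neural cells share, were not called. The keratin gene Krt18 had 6 and 7 UMIs in low-neuron members (68.0 and 63.2 CPM) against 0.533 and 0.935 CPM elsewhere and was below the filter.

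Secreted and binding proteins gave 9 of 17 higher in members and 11 in low-neuron members. The list did not set members apart from the fibroblast set, where it summed to 2132 and 2169 CPM. In members it summed to 2275 and 1814 CPM and in low-neuron members to 4306 and 4892 CPM. Sulf1, an enzyme that trims heparan sulfate outside the cell, stood at 1541 and 1498 CPM, 45.0- and 30.2-fold above other nuclei. Vat1l stood at 1110 and 1101 CPM (24.7- and 19.5-fold). Sostdc1, a secreted BMP and Wnt antagonist, was 82.0- and 70.5-fold higher, with 12 and 15 UMIs in low-neuron members. For Sostdc1 the other nuclei alone held under 100 UMIs, the minimum for a gene to be compared. The binding protein gene Igfbp2 was 3.61- and 5.36-fold higher, Ecrg4 17.0- and 18.0-fold, and the collagen gene Col8a1 15.4- and 44.3-fold. Ttr's partner in retinol transport, Rbp4, had 0 UMIs in both sets of low-neuron members, as did Igf2. Cst3, Trf and Cp were not called.

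Solute carriers and receptors gave 7 of 27 higher in members and 8 in low-neuron members. The list summed to 7237 and 5286 CPM in members and 14150 and 11880 CPM in low-neuron members. In the fibroblast set it summed to 3733 and 3912 CPM. Htr2c alone gave 8759 and 6652 CPM of the low-neuron sum, against 15.3 and 22.2 CPM in other nuclei (573- and 299-fold). Slco1a4, an organic anion carrier, had 32 and 29 UMIs in low-neuron members and was 408- and 388-fold higher. For Slco1a4 the other nuclei alone held under 100 UMIs, the minimum for a gene to be compared. The vitamin C carrier gene Slc23a2 (7.77- and 7.66-fold) and the sulfate carrier gene Slc13a4 (18.2- and 22.3-fold) were also higher. Slco1c1, which carries thyroxine, was 16.0- and 5.97-fold higher. Slc2a1, Igf1r, Igf2r, Tfrc and Lrp2 were not called.

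Of the lists outside the rule markers, multiciliation stood furthest above other nuclei, with 25 of 31 tested genes higher in members and 30 in low-neuron members. With the minimum set on the other nuclei it was 20 and 25 of 26, since Gmnc, Foxj1, Deup1, Dnah6 and Ak9 entered only with the members' own UMIs. Its median log2 ratio was 4.15 and 3.12 in members and 5.59 and 4.82 in low-neuron members, where all tested genes had medians of -0.40 and -0.22 (0.55 and 0.40 with genes at 0 set to 3 UMIs). Gmnc, the geminin family factor that starts the program, stood at 1065 and 433 CPM against 2.07 and 0.987 CPM. The transcription factors Foxj1 (34.4- and 33.0-fold), Rfx2 (15.7- and 19.0-fold) and Rfx3 (2.23- and 3.16-fold) were higher in low-neuron members. So were Deup1 (147- and 130-fold), which builds the deuterosome that multiplies centrioles, and Cdc20b (97.8- and 176-fold), another deuterosome gene. Axoneme genes included the dynein heavy chain genes Dnah6 (292- and 187-fold), Dnah9 (34.9- and 26.1-fold) and Dnah11 (93.4- and 36.6-fold). Spef2 (123- and 65.3-fold), Hydin (71.5- and 41.3-fold), Spag16 (61.9- and 37.6-fold) and Cfap43 (89.0- and 53.3-fold), all parts of motile cilia, were higher as well. Dnah7a was the 1 tested gene not called in low-neuron members. Below the filter, Mcidas, a second geminin family factor, had 9 and 17 UMIs, and Ccno 0 and 6.

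**Figure D3:**
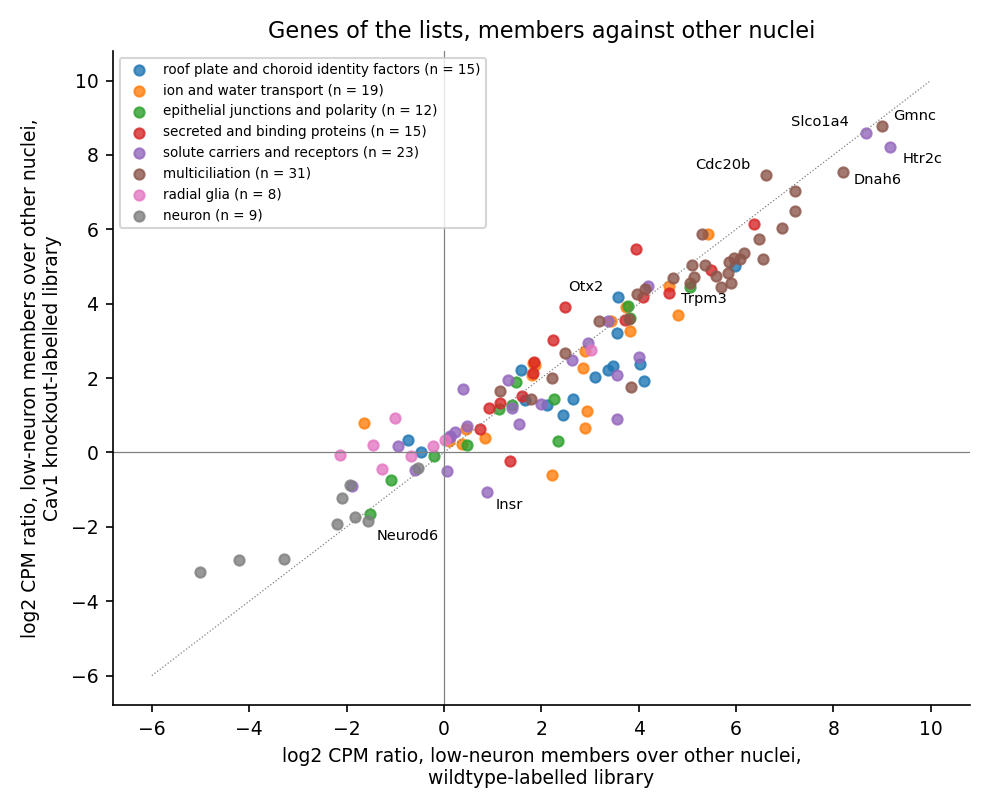
Each point is a tested gene of the named list with UMIs in low-neuron members of both libraries, placed by its log2 CPM ratio to the other nuclei in the wildtype-labelled (x) and knockout-labelled (y) library; the dotted line marks equal ratios. All 31 multiciliation genes lie above 0 in both libraries, while the neuron genes lie below 0.

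Outside the lists, the 15 genes with the largest smaller-library ratio held several cilia components. Dnai3 (98.0- and 36.7-fold in members), Odad1 (43.2- and 32.3-fold), Cfap91 (63.6- and 23.6-fold) and Daw1 (14 and 24 UMIs in low-neuron members) belong to the machinery of motile cilia. Lrriq1, Ccdc170 and Vwa3a stood 67.7- and 34.6-fold, 68.4- and 47.5-fold and 32.5- and 25.5-fold above other nuclei. Rbm47, an RNA-binding protein gene of epithelia, had 91 and 103 UMIs in low-neuron members, spread over 29 of 31 and 28 of 42 nuclei. P-cadherin, Cdh3, was 61.9- and 54.4-fold higher and the collagen gene Col8a2 33.3- and 30.0-fold. Col8a2 did not differ from the fibroblast set beyond counting error (1.08-fold, 0.401 to 3.36, and 1.13-fold, 0.499 to 2.99). The other 5 were Gm29571, 2010001K21Rik, Gm20528, Gm42722 and Gm13110, whose roles are not given here. Gm20528 overlapped 21 other annotated genes, Trpm3 and Htr2c 10 each and Rbm47 7. Whether the authors' counting used the strand is not given in the sources used here, so UMIs of overlapping genes are uncertain in their assignment.

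Positional genes gave few calls. Of the 3 tested hindbrain genes, Hoxb3, Meis1 and Meis2, none was higher in members. Meis2, a homeobox gene of several brain regions, was lower in low-neuron members, at 453 and 704 CPM against 1812 and 1642 CPM, and 24 of 31 and 31 of 42 low-neuron members had none. A few nuclei carried it, since 2 and 3 nuclei with at least 5 UMIs held 35 of 40 and 68 of 78 of the UMIs. Hoxa2 and Hoxb3, which mark the hindbrain, had 0 UMIs in low-neuron members of both libraries. In other nuclei Hoxb3 stood at 0.178 and 8.88 CPM and Hoxa2 at 0 and 1.66 CPM, so the libraries differed in hindbrain RNA outside the members. At the depth of the low-neuron members such levels could not be told from 0. Meis1 gave 2 and 16 UMIs in low-neuron members and was called higher in the knockout-labelled library over all members (log2 ratio 2.43). The part of the libraries' regional makeup in the members' differences was not tested. Of 12 forebrain genes, Dmrt3 was higher over members (3.04- and 3.24-fold) and Lef1 in low-neuron members (2.57- and 4.29-fold). In low-neuron members 2 of the 12 were lower, among them Nr2f1 (0.397- and 0.249-fold). None of 10 division genes was called against other nuclei in either member set.

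Neuron genes were low in low-neuron members, and other cell types' markers were mixed. Of 12 neuron genes 10 were lower, and their summed level was 895 and 1607 CPM against 6962 and 7004 CPM in other nuclei. The choice of nuclei sets much of this, since 10 of the 12 genes made the subset. The 2 that did not, Map2 (0.235- and 0.431-fold) and Nrxn3 (0.0312- and 0.108-fold), were both lower. They are no separate check, since a cut on neuron UMIs can also lower genes expressed with those of the cut. Over all members none of the 12 was called lower, and Nrxn3 stood at 0.503- and 0.952-fold. The 10 radial glia genes summed to 1042 and 1607 CPM against 1438 and 1416 CPM, and of these Ednrb, an endothelin receptor gene, was higher (8.09- and 6.71-fold). Fibroblast genes summed to 22.7 and 217 CPM against 150 and 148 CPM, with 8 and 5 of 10 at 0. The collagen genes Col1a1, Col1a2 and Col3a1, which define fibroblasts, had 0 and 1 UMI each, a level the rule itself limited, and Pdgfra gave 172 of the 217 CPM. Endothelial genes summed to 68.0 and 126 CPM against 106 and 166 CPM, with 5 and 3 of 8 at 0, where the rule limited Flt1 and Kdr. Mural cell genes summed to 102 and 63.2 CPM against 75.3 and 84.2 CPM. The part of other cells' RNA in the members' values was not tested. Of the Cajal-Retzius genes Trp73, which also acts in multiciliated cells, was higher (10.6- and 13.6-fold), and Reln, which defines those neurons, had 1 UMI in each library.

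Cx3cr1, known as a chemokine receptor gene of microglia, raised the summed level of the 8 microglia genes to 635 and 460 CPM, against 98.3 and 90.4 CPM in other nuclei. It had 50 UMIs in 19 of 31 and 42 UMIs in 20 of 42 low-neuron members, 19.5- and 13.8-fold above other nuclei. The defining microglial genes C1qa, C1qb and Ptprc had 0 UMIs in these nuclei in both libraries, Csf1r had 1 and 1, and Mrc1 had 0 and 1. At equal depth of 1000 UMIs, Cx3cr1 was detected in 32.3% (16.7% to 51.4%) and 28.9% (15.4% to 45.9%) of low-neuron members. In the radial glia set it was detected in 3.68% and 2.67%.

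Between the libraries, the result depended on which members were summed. Over all members 8532 genes had at least 20 UMIs. With a 2-fold minimum and a log2 interval excluding 0, 451 (5.29%) were higher and 713 (8.36%) lower in the knockout-labelled library. In low-neuron members 2299 genes entered, with 82 (3.57%) higher and 80 (3.48%) lower. Only 47 genes were called in both, and 852 of the genes called in all members had too few UMIs in low-neuron members. Of the genes called higher over all members 9 had 0 wildtype-labelled UMIs, among them Gm15581 and Cav2 given above, and their ratios have no order. The other 7 were D130009I18Rik, Gm43824, Gm45904, Sv2c, Gm20713, Hcrtr2 and Nell1os, with 21 to 33 knockout-labelled UMIs. With the empty library set to 3 UMIs they were 3.49- to 5.48-fold higher. The lower limits of the log2 intervals were 1.375 for Hcrtr2 and Gm20713 and 2.075 for D130009I18Rik. Low-neuron members held 0 to 4 of the UMIs of each of these 7, and members over 10000 UMIs held 15 to 28. The lowest ratios were those of Gpx1, Hba-a2, Rpl29, Mrpl12 and Hbb-bt, with log2 ratios of -3.33 to -3.00. The 2 deepest wildtype-labelled members held 552 of the 715 UMIs of haemoglobin genes and 74 of 87 UMIs of Rpl29.

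The defining epithelial genes named here, apart from Folr1, were less than 2-fold apart between the libraries in low-neuron members. Ttr, a rule gene, gave 657 and 956 UMIs and a log2 ratio of knockout-labelled over wildtype-labelled of 0.21 (0.07 to 0.36), against -0.33 (-0.44 to -0.22) over all members. Trpm3 gave 1099 and 1274 UMIs and -0.12 (-0.23 to 0.00), and Htr2c 773 and 737 UMIs and -0.40 (-0.54 to -0.25). Over all members Trpm3 stood at -0.70 and Htr2c had been called lower at -1.04, and in members with at least 0.5% from the pair it stood at 0.02, although that cut uses Htr2c. Sulf1 stood at -0.04 (-0.38 to 0.30), Otx2 at 0.44 (-0.13 to 1.04) and Lmx1a at -0.73 (-1.33 to -0.14), against -0.71, -0.23 and -0.93 over all members. Clic6, a rule gene, was called lower over all members at -1.18 and stood at -0.39 in low-neuron members. None of 11 tested transport genes and none of 7 tested identity factors was called. Of all 2299 genes tested in low-neuron members 3.57% were called higher and 3.48% lower, so the lack of calls does not set such short lists apart. Folr1, also a rule gene, was higher at 1.07 (0.28 to 1.91), with 19 and 50 UMIs, but stood at -0.02 (-0.58 to 0.56) over all members. Without the top knockout-labelled nucleus Folr1 was 0.99 (0.19 to 1.84), which is under the 2-fold rule. Without the top nucleus of each library it was 1.14 (0.29 to 2.06). In members with at least 0.5% from the pair it was 1.09 (0.44 to 1.77).

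Multiciliation genes showed no single direction between the libraries. For the 27 tested in low-neuron members, 24 had a log2 ratio below 0 over all members (median -0.80, 10 called lower) and 20 in low-neuron members (median -0.29, 2 called lower and 1 higher). In members with at least 0.5% from Trpm3 and Htr2c, 10 of the 27 were below 0 (median 0.29, none lower and 2 called higher). The medians over all 2299 genes in these sets were -0.03, -0.01 and 0.00. Of these 2299 genes 255, 80 and 74 were called lower in the 3 sets, and 56, 82 and 60 higher. In the last 2 sets the list's few calls are too few to set it apart from all genes. Gmnc (chr16:26732303-26810402, minus strand, GRCm39) was below 0 in all 3 sets: it gave 94 and 48 UMIs in low-neuron members, a log2 ratio of -1.30 (-1.83 to -0.78). It reached -1.87 over all members and -0.79 (-1.21 to -0.38) in members with at least 0.5% from the pair, which is under the 2-fold rule. Without the top nucleus of each library Gmnc stood at -1.33 in low-neuron members. At equal depth Gmnc was detected in 10 of 31 and 9 of 38 low-neuron members, shares whose intervals overlap (16.7% to 51.4% and 11.4% to 40.2%). Dnah11, the other gene called lower, gave 40 and 24 UMIs (-1.07, -1.86 to -0.30), and -0.69 with the 0.5% minimum.

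**Figure D4:**
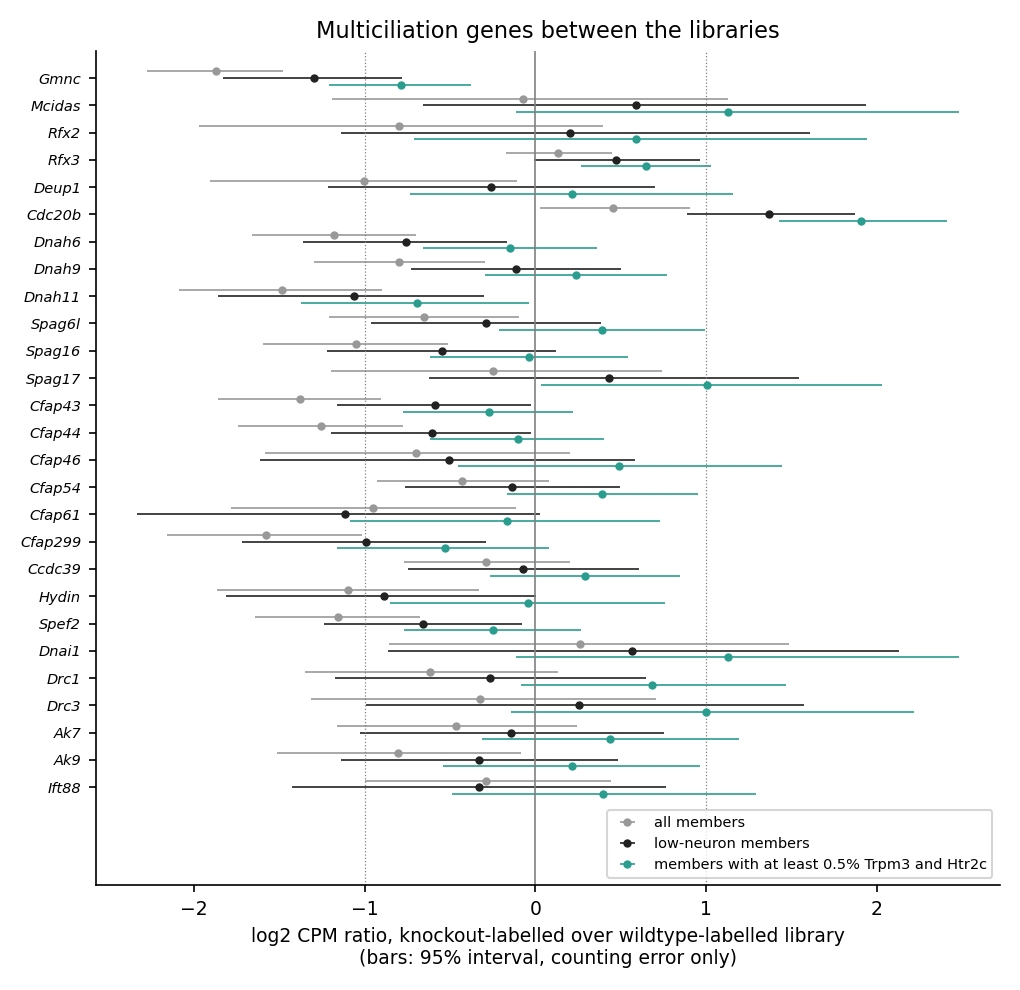
Points give the log2 CPM ratio of the knockout-labelled over the wildtype-labelled library for the 27 multiciliation genes tested in low-neuron members, with 95% counting intervals, over all members (grey), low-neuron members (black) and members with at least 0.5% of UMIs from Trpm3 and Htr2c (green); dotted lines mark 2-fold. The medians shift from -0.80 to -0.29 and 0.29, with Gmnc below 0 and Cdc20b above 0 in each set.

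Cdc20b, the multiciliation gene called higher in low-neuron members, was carried by few nuclei. It gave 47 and 152 UMIs (log2 ratio 1.37, 0.89 to 1.87) and was detected in 5 of 31 and 5 of 42 low-neuron members. A single wildtype-labelled nucleus held 32 of the 47 UMIs, and a single knockout-labelled nucleus held 86 of the 152. Without the top knockout-labelled nucleus the log2 ratio was 0.22 (-0.34 to 0.80), so the call rests on it, and without the top nucleus of each library it was 1.80 (0.97 to 2.71). The 5 nuclei with Cdc20b in each library held all UMIs of Mcidas (9 and 17) and 16 of 20 and 17 of 21 UMIs of Deup1. They also held all 6 UMIs of Ccno, a cyclin-like gene of the same pathway, and 8 of 94 and 5 of 48 UMIs of Gmnc. Their median depth was 3112 and 2665 UMIs, against 2288 and 2422 for the low-neuron members without Cdc20b. These nuclei carried epithelial RNA as well, since each held UMIs of Ttr, Trpm3 and Htr2c.

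Htr2c varied with Trpm3 and with Gmnc across low-neuron members. Spearman's rho of CPM between Htr2c and Trpm3 was 0.444 over 31 and 0.722 over 42 nuclei. Between Htr2c and Gmnc it was 0.630 and 0.432. The nuclei of each value share a library, and Htr2c itself had rho of -0.011 and 0.293 with depth, and Gmnc 0.383 and 0.199. Htr2c had 0 to 95 UMIs per nucleus (median 18) and 0 to 96 (median 12), with 2 and 10 nuclei at 0. Trpm3 was at 0 in 0 and 7 nuclei, which enter the knockout-labelled values of rho. Gmnc had 0 to 16 UMIs (median 1) and 0 to 8 (median 0), with 8 and 2 nuclei at 5 or more. Lmx1a and Htr2c showed no shared pattern, with rho of -0.334 and 0.141.

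**Figure D5:**
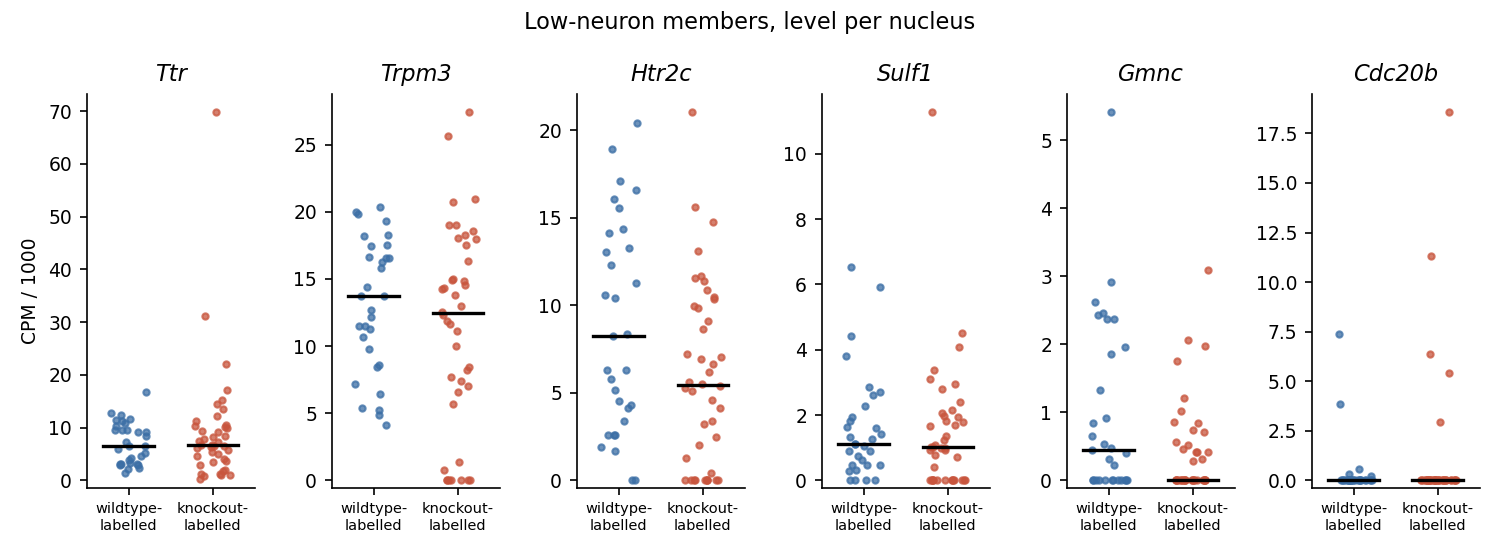
Each point is a low-neuron member, with its CPM divided by 1000 on a linear axis for 6 genes, for 31 wildtype-labelled and 42 knockout-labelled nuclei, and a black bar at the median. Ttr and Trpm3 are spread over most nuclei, while Cdc20b lies at 0 in all but 5 nuclei of each library.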

How the data were processed

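The files deposited by the authors hold raw UMI counts of genes in barcodes. Per the file headers Cell Ranger 6.1.1 wrote them, while the submitters' processing notes name Cell Ranger 3.0.1, STAR and GRCm39. The annotation, intron counting and strand use are not given in the sources used here. Of 9763 and 10811 barcodes, 2969 and 3904 had under 500 genes, and 108 and 227 of the rest over 5% mitochondrial UMIs. Total counts over kept nuclei were 17205381 and 19878903. UMIs were summed per library and set and given as CPM, with exact Poisson, Clopper-Pearson and conditional binomial 95% intervals (scipy 1.17.1). Code was tested on simulated data. Scrublet (scanpy 1.11.5) called 0 doublets by its own threshold, so none were removed in the main analysis, and leaving out the top 8% of scores (535 and 534 nuclei, 18 and 11 of them members) was an alternative. Genes were named from fixed lists, plus the 15 largest ratios to other nuclei and the 5 highest and 5 lowest between libraries (9 genes tied as highest, all named). The members and lists were chosen with earlier results of these data known. Radial glia nuclei were drawn by at least 5 UMIs of Slc1a3, Fabp7, Hes5, Pax6, Ednrb and Vim, with 3 detected. List names 1500015O10Rik and Wdr63 matched no feature. No p-value is given. Gene positions came from GENCODE M39 on GRCm39, and 54749 of 55416 features matched.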

Additional observations from a re-analysis of the deposited data

How the results depend on the processing

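One library per genotype leaves no measure of the spread between animals, and 55 and 77 nuclei limit every ratio. The share of members (0.823% wildtype-labelled, 1.15% knockout-labelled) was 0.79% in the knockout-labelled library with at least 200 genes and 0.749% there with a marker sum of 10. It was 1.81% and 2.32% with a marker sum of 3, 0.344% and 0.389% by the 6 markers without Ttr, and 0.445% and 0.521% after thinning. In the wildtype-labelled library it was 0.602% without top Scrublet scores. It was 0.464% and 0.629% in low-neuron members. With the 0.5% Trpm3 and Htr2c minimum, set after seeing the data, it was 0.599% knockout-labelled, and the difference was -0.03 points.

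Genes lower in members than in other nuclei (14) numbered 8 with at least 1000 genes, 61 and 7 with marker sums of 10 and 3, 94 without Ttr and 105 without members over 10000 UMIs, an alternative added after seeing the data. Genes higher and lower (426 and 14) were 719 and 497 in low-neuron members and 772 and 352 with the 0.5% minimum.

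Genes higher and lower in the knockout-labelled library (451 and 713) were 149 and 134 without Ttr, 82 and 80 in low-neuron members and 146 and 135 without deep members. They were 106 and 131 with the 0.5% minimum and 274 and 371 with at least 50 UMIs. Genes higher were 257 with a marker sum of 3 and 967 without top Scrublet scores.

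Log2 ratios of named genes between libraries turned sign in these cases, among others. Ttr was 0.21 with a marker sum of 10, 0.02 by the 6 other markers, 0.21 in low-neuron members, 0.27 without deep members, 0.72 with the 0.5% minimum and 0.39 thinned. In the same order without the first and last, Hba-a2 was 0.36, 0.67, 0.3 and 0.73, and Rpl29 was 0.95, 1.26, 0.2 and 1.21. Gpx1 was 0.71 without deep members and 0.21 with the 0.5% minimum. Cdc20b was -2.29 by the 6 other markers. Fgfr2 was -0.03 without deep members and -0.22 thinned, and Lmx1a 0.01 thinned. With the 0.5% minimum Trpm3 was 0.28, Htr2c 0.02, Car12 0.18 and Sulf1 0.03. Otx2 (-0.23), Folr1 (-0.02) and Slc12a2 (-0.11) were 0.17, 0.47 and 0.30 with a marker sum of 10 and 0.44, 1.07 and 0.21 in low-neuron members. The cause was not tested. No paired analysis was possible because each genotype has 1 library.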

Other observations

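Some nuclei outside the rule also held Htr2c. With at least 5 UMIs of it there were 8 wildtype-labelled and 25 knockout-labelled non-members, beside 39 and 42 members. Their median marker sums were 0 and 1, and their median depths were 4401.5 and 5509 UMIs.

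In low-neuron members the insulin receptor gene Insr gave 23 UMIs in 12 of 31 wildtype-labelled and 7 UMIs in 6 of 42 knockout-labelled nuclei, a log2 ratio of -2.04 (-3.51 to -0.78), and -1.01 (-2.12 to 0.01) in members with at least 0.5% from Trpm3 and Htr2c. Pdgfra, a growth factor receptor gene known from fibroblasts and glial precursors, gave 1 UMI and 19 UMIs (log2 ratio 3.92, 1.27 to 9.30), the latter in 9 nuclei, with 1 nucleus holding 6. The secreted chaperone gene Clu gave 5 and 21 UMIs in 4 and 17 nuclei, with a log2 ratio of 1.74 (0.30 to 3.50). The division gene Top2a gave 9 and 28 UMIs and was called higher at 1.31 (0.18 to 2.58). With the top nucleus of each library left out it was 0.97 (-0.38 to 2.48). Genes of other cell types were also called higher in the same nuclei: the neuron genes Stmn2 at 1.30 (10 and 31 UMIs) and Nrxn3 at 1.82 (9 and 40), and the radial glia genes Vim and Pax6 at 1.67 (4 and 16 each). These calls varied with the nuclei summed. Over all members Vim was called lower at -1.03 (-1.58 to -0.48). With the 0.5% minimum Pax6 stood at -0.79 (-3.42 to 1.44), Stmn2 at 0.51 (-0.22 to 1.24), Nrxn3 at 0.77 and Vim at 1.65. Among knockout-labelled low-neuron members, 2 nuclei held 32 of the 40 Nrxn3 UMIs and 2 held 12 of the 16 Pax6 UMIs. The part of other cell types' RNA in these differences was not tested. Outside the lists, the iron storage gene Ftl1 gave 10 and 42 UMIs, the latter in 24 nuclei, and Nxph1 gave 1 and 62 UMIs, the latter in 5 nuclei. These genes were chosen after their values were seen.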
